A study of Mus musculus with 12 samples.

Results

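The comparison described here set KH2 mouse embryonic stem (ES) cells kept in retinoic acid (RA) for 6 h against untreated cells of the same line. Its members are the 3 arrays labelled with 6 h of RA and the 3 labelled with none, 6 of the 12 arrays of a time course that also holds 2 h and 4 h. Each array reported log2 signals of total RNA, and 18194 genes could be compared.

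All arrays came from 1 cell line, KH2, which carries a tetracycline transactivator and a landing site for transgenes near Col1a1; the labels name no transgene and call the untreated arrays WT. The cells grew on feeder cells. Treated cells received 0.3 µM RA in a differentiation medium of DMEM, serum and NAA, and the labels do not say that untreated cells were given that medium, so the effect of RA and that of the medium cannot be told apart. Cells were trypsinized and replated on gelatin before RNA was taken. The extraction text keeps the cells that attached; by the treatment text it may have been the unattached ones. Replicates are lettered A, B and C, but nothing says that they were separate cultures. The p-values therefore measure the spread between these arrays, possibly a technical one, and their precision is that of groups of 3.

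RA is the vitamin A derivative that binds the RA receptors (Rara, Rarb, Rarg), which pair with the retinoid X receptors (Rxra, Rxrb, Rxrg) on DNA and switch from corepressors to coactivators when RA is bound. Known direct targets include the RA-degrading enzyme Cyp26a1, the receptor Rarb and the 3′ genes of the Hox clusters, which give cells their position along the body axis. In ES cells RA ends self-renewal, which depends on LIF signalling and on factors such as Pou5f1, Sox2, Nanog, Klf4 and Esrrb, and starts differentiation.

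All 9 ES cell markers lay above 6.07, the median of all deposited values, on the 3 untreated arrays. So did 28 of 34 feeder fibroblast, 4 of 5 neuron and 4 of 6 trophoblast markers, so this cut does not tell cell types apart. The ES cell markers had mean log2 signals of 12.78, 12.80 and 12.83 on untreated replicates A, B and C. At 6 h the means were 12.53, 12.51 and 12.43, with 5 of the 9 called lower and 1 higher. The 34 feeder fibroblast markers measured had mean log2 signals of 8.65, 8.97 and 8.26 on untreated replicates A, B and C and of 8.83, 8.69 and 8.73 at 6 h. Untreated replicate C stood apart: its correlations with A and B over all probe sets were 0.9935 and 0.9928, against 0.9971 between A and B and 0.9971 to 0.9978 among the 6 h arrays. In that replicate 28 of the 34 feeder markers were under the A and B mean (median difference over the list -0.56). At 6 h, 3 feeder markers were called higher and 2 lower, with 12 higher without untreated replicate B, 1 higher and 6 lower without C, and 1 higher without untreated A or 6 h A. Of 7 defining feeder genes none was called; their mean signal was 8.02, 8.70 and 7.43 on the untreated arrays and 8.51, 8.34 and 8.20 at 6 h. The part of feeder RNA in the results was not tested. The controls Gapdh (-0.01 ± 0.049), Actb (-0.02 ± 0.059) and Hprt (-0.03 ± 0.053, log2 difference and standard error, SE) were not called.

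After 6 h of RA 2734 genes exceeded and 2675 fell below their level in untreated cells (limma, Benjamini-Hochberg adjusted p under 0.05). Calls made up 29.7% of the 18194 genes, 15% in the higher and 14.7% in the lower direction, and every count below is read against these shares. The arrays of the 2 groups did not overlap for 7088 genes, 39% of all, and for 5232 of those called. Most calls were small: the median size among called genes was 0.41 on the log2 scale, and 166 rises and 159 falls reached 2-fold (a log2 difference of 1). Beyond a log2 difference of 2 there were 22 rises and 5 falls. Over all genes the median difference was -0.01. A lower signal can come from fewer cells of a type or from less RNA per cell, and these arrays cannot tell the 2 apart. The files hold no detection calls, and a fold is therefore left out for genes whose untreated or 6 h arrays lay under 6.07; this held for the untreated arrays of 319 of the 2734 higher genes and the 6 h arrays of 400 of the 2675 lower genes. The total of calls was 3618 when only the 6 arrays were fitted.

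**Figure D1:**
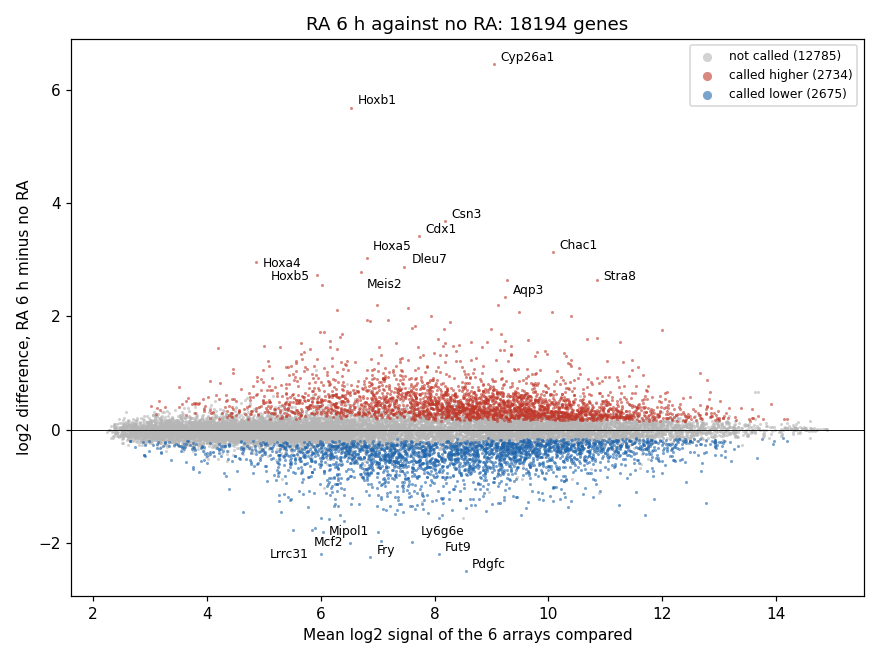
Each point is a gene, placed by its mean log2 signal over the 6 arrays (horizontal axis) and its log2 difference, RA 6 h minus no RA (vertical axis), with genes called higher in red, called lower in blue and not called in grey. Cyp26a1 (6.46) and Hoxb1 (5.69) stand above every other gene, while the largest fall, that of Pdgfc, is -2.49.

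Genes that handle RA itself changed in both directions. Cyp26a1, the P450 that degrades RA, read 5.64, 5.85 and 5.94 on untreated replicates A, B and C and 12.27 on all 3 arrays at 6 h, a log2 difference of 6.46 ± 0.084 (SE, adjusted p = 5.14e-13). The 3 treated arrays differed by less than the 3 untreated ones, which lay under 6.07. Dhrs3, a reductase that returns retinaldehyde to retinol, read 6.59, 5.63 and 7.19 without RA and 8.46, 8.62 and 8.76 at 6 h, a rise of 2.14 ± 0.28 (adjusted p = 0.000154). Its untreated arrays were spread widely, yet none reached the 6 h arrays. Smaller rises were those of Stra6, the receptor that takes up retinol from its carrier (0.77 ± 0.11), Crabp2, which brings RA to the receptors (0.68 ± 0.078), the retinol dehydrogenases Rdh14 (0.64 ± 0.17) and Rdh12 (0.58 ± 0.12), and the second RA-degrading enzyme Cyp26b1 (0.50 ± 0.10). The 4 falls included binding proteins and a retinal reductase: Rdh11 fell by 0.64, Fabp5, a fatty acid binding protein that also binds RA, by 0.53 and Crabp1 by 0.31. The fall of the retinol carrier Rbp4 (-0.38 ± 0.12) was lost without untreated replicate C or 6 h replicate A or B. Among enzymes that make RA, Aldh1a1 (-0.04 ± 0.13), Aldh1a2 (-0.28 ± 0.11) and Aldh1a3 (0.15 ± 0.11) were not called. The retinol dehydrogenase Rdh10 (-0.07 ± 0.10) was not called either, unlike Rdh14 and Rdh12. Without untreated replicate C, Rdh10 was called lower (-0.21, adjusted p = 0.0244). In all, 7 of 17 measured genes of RA metabolism were higher and 4 lower, with a median log2 difference of -0.003 against -0.01 over all genes.

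All 3 RA receptors rose. Rarb read 5.10, 4.75 and 5.55 without RA and 6.77, 6.78 and 7.04 at 6 h (1.73 ± 0.16, adjusted p = 1.67e-05). Rarg rose from 9.83, 9.41 and 9.53 to 10.99, 10.90 and 10.94, 2.55-fold, and Rara from 8.50, 8.21 and 8.26 to 9.37, 9.28 and 9.33, 2.01-fold. For each receptor the lowest treated array lay above the highest untreated one. Their partners moved little: Rxrb (0.33 ± 0.052) and Rxrg (0.32 ± 0.083) were called higher, and Rxra (-0.08 ± 0.060) was not called, although it was lower (-0.27, adjusted p = 0.027) when probe sets with a cross-hybridization suffix were left out. Nrip1, a corepressor that binds RA-bound receptors, read 7.88, 7.85 and 8.43 without RA and 10.43, 10.33 and 10.45 at 6 h, 5.10-fold higher (adjusted p = 3.12e-07). The acetyltransferase Crebbp (0.41 ± 0.13) and the coactivator Ncoa3 (0.40 ± 0.083) rose by less. The corepressor component Tbl1x fell by 0.47, the Mediator subunit Med1 by 0.46, the coactivator Ncoa1 by 0.28 and the deacetylase Hdac3 by 0.21; Med1 had 1 probe set called higher and 2 lower, and the falls of Med1 and Hdac3 were not called when only the 6 arrays were fitted, nor that of Hdac3 without 6 h replicate A. Together 8 of 15 measured receptors and coregulators were higher and 4 lower (median 0.32). Among the orphan nuclear receptors, whose ligands are mostly unknown, 7 of 14 were higher and 2 lower, with 5 lower without untreated replicate C and 1 lower without untreated A or B or 6 h replicate C. Nr6a1, a repressor of pluripotency genes, read 10.08, 10.01 and 10.03 and then 11.66, 11.67 and 11.67, 3.09-fold higher, with hardly any spread within either group. The COUP factor Nr2f1 rose by 0.75 and its relative Nr2f2 by 0.55 in 1 of its 6 probe sets, both from signals under 6.07, while the ES cell receptor Esrrb fell by 0.53.

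The RA receptors bind direct repeats of a 6-base motif, and the promoters of Cyp26a1 and Rarb are shown because both genes rose and both hold such a repeat next to the start. The windows were the 250 bases before each gene's start, from RefSeq on build GRCm38.p6, with the repeat in capitals: Cyp26a1 lies at chr19:37697558-37697807 on the plus strand and Rarb at chr14:16575477-16575726 on the minus strand.
Cyp26a1: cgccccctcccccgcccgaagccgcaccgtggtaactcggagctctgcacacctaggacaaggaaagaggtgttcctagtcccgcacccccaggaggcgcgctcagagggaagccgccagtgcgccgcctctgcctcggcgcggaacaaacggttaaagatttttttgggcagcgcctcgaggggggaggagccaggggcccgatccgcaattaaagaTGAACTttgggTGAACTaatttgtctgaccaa
Rarb: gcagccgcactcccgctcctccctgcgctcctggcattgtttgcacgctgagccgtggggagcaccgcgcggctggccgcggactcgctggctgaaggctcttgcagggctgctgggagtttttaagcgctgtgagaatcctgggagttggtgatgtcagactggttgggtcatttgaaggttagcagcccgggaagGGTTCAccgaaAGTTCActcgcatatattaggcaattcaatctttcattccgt
In Cyp26a1 the repeat starts 32 bases before the gene start and reads on the opposite strand, and in Rarb it starts 53 bases before the start on the gene's own strand. The search took pairs of 6-base sites, each of them AGGTCA or GGGTCA or AGTTCA or GGTTCA, in 1 orientation with 5 bases between them, on both strands, in windows from 250 bases before to 50 bases after a start, which 14453 of the 18194 genes have. Such repeats were in 11 of the 14453 genes (0.0761%). Of the 125 genes with a window that rose at least 2-fold, 3 held one (2.4%). These were the known targets Cyp26a1 and Rarb and the chemokine gene Ppbp (1.47 ± 0.16), named after its values were seen. Of the 127 that fell as far none did, which says little at so low a share over all genes. Among all called genes with a window, 4 of 2275 higher ones (0.176%) and 2 of 2143 lower ones (0.0933%) held the repeat. With 2 bases between, the repeat was in 14 genes (0.0969%) and in 1 of the 125. A match describes these letters only.

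The Hoxa and Hoxb clusters gave 10 rises, 6 of them from signals under 6.07 on all untreated arrays. Hoxb1, the 3′ gene of the Hoxb cluster that patterns the hindbrain, read 3.91, 3.41 and 3.76 without RA and 9.05, 9.63 and 9.48 at 6 h (5.69 ± 0.17, adjusted p = 2.31e-09). It moved from far below to far above 6.07, and the size of a difference that starts from such low signals is uncertain. Hoxb5 followed (4.17, 4.88 and 4.68 to 6.89, 7.36 and 7.65, 2.73 ± 0.23), then Hoxb2 (2.20 ± 0.25), Hoxb13 (2.12 ± 0.11) and Hoxb4 (1.32 ± 0.15, 2.49-fold). Hoxb13 is the 5′ end gene, set apart from the rest of the cluster; it read 5.25, 5.06 and 5.39 and then 7.20, 7.31 and 7.55, and its neighbours toward the 3′ side, Hoxb9 (0.08 ± 0.077) and Hoxb7 (0.09 ± 0.080), were not called. Hoxb3 (0.36 ± 0.18) and Hoxb6 (0.52 ± 0.19) were not called either. In the Hoxa cluster the largest values were those of Hoxa5 (5.06, 4.82 and 6.00 to 7.81, 8.23 and 8.95, 3.04 ± 0.33) and Hoxa4 (3.07, 3.48 and 3.63 to 6.20, 6.23 and 6.62, 2.95 ± 0.22), with Hoxa2 (0.80 ± 0.13), Hoxa3 (0.44 ± 0.10) and Hoxa7 (0.40 ± 0.10) called as well. In Hoxa5 untreated replicate C lay nearly 1 log2 unit above A and B and still below every treated array. Hoxa9, Hoxa10, Hoxa11 and Hoxa13 were not called, nor was Evx1 beside the cluster. Counts were 5 of 9 measured genes of the Hoxb cluster list (median 1.32) and 5 of 10 of the Hoxa cluster list (median 0.35), all higher. None of 16 measured genes of the Hoxc and Hoxd clusters was called by limma (1, Hoxd9, had an unadjusted p under 0.05), and 12 lay under 6.07 on all 12 arrays; the largest positive differences were Hoxc4 (0.24 ± 0.12) and Hoxd8 (0.22 ± 0.11).

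**Figure D2:**
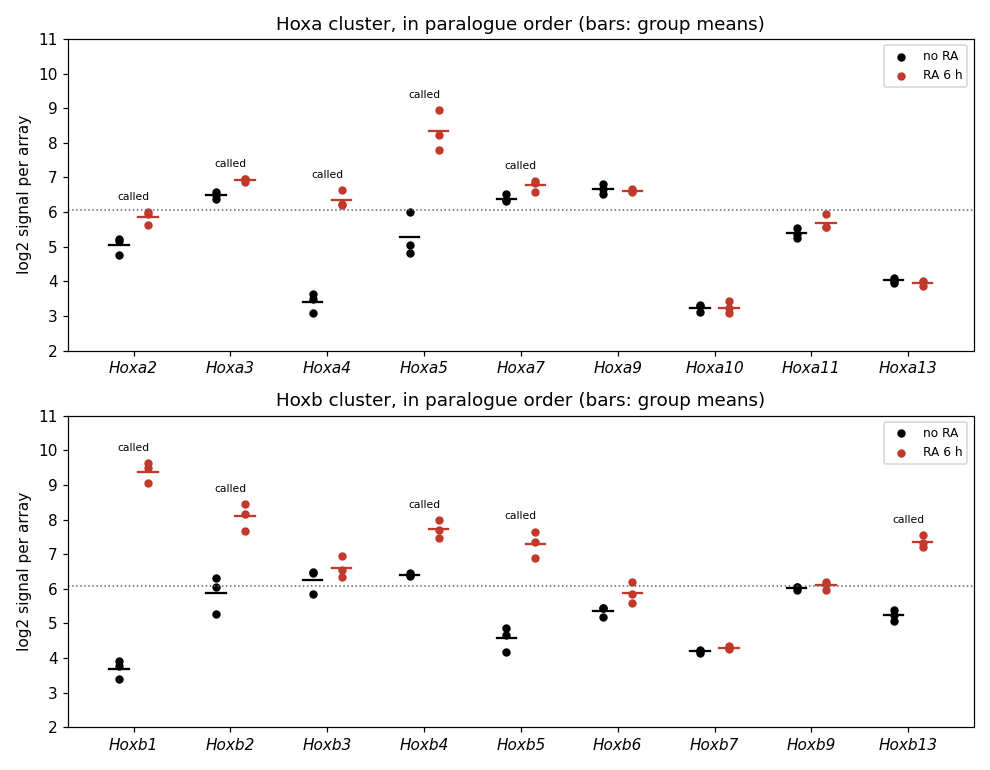
Points are log2 signals of single arrays for the measured Hox genes of the Hoxa (top) and Hoxb (bottom) clusters in paralogue order, black for no RA and red for RA 6 h, with short bars at the group means and a dotted line at 6.07, the median of all values. Called genes lie mostly at the low paralogue numbers, and Hoxb13 (mean difference 2.12) is called at the other end.

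Cofactors of the Hox proteins and the Cdx factors, which act upstream of Hox genes, split in direction. Cdx1 read 5.96, 6.31 and 5.77 without RA and 9.29, 9.37 and 9.65 at 6 h (3.43 ± 0.13, adjusted p = 2.15e-08). Its relative Cdx2 (0.29 ± 0.10, adjusted p = 0.0534) was not called, and passed without untreated replicate A. Meis2, a TALE homeobox cofactor, rose from 5.65, 4.99 and 5.32 to 7.99, 8.21 and 8.09 (2.78 ± 0.15), with all 4 of its probe sets higher. Pbx2 was 2.26-fold higher. Meis1 was called as well (1.11 ± 0.16), but its value was 0.07 when probe sets with a cross-hybridization suffix were left out. Other TALE genes fell: Pbx3 by 0.49, Tgif2 by 0.41 and Tgif1 by 0.32. The list counted 5 higher and 5 lower of 13, and 3 lower without untreated replicate C or 6 h replicate B or C.

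Beside Cyp26a1, Hoxb1, Cdx1, the Hoxa and Hoxb genes and Meis2, the 12 largest rises held genes from outside these families. Csn3, the kappa casein gene, read 6.75, 6.23 and 6.04 and then 9.97, 9.95 and 10.14 (3.68 ± 0.14, adjusted p = 2.15e-08). Stra8, which germ cells need to enter meiosis and which was named for its response to RA, read 9.72, 8.82 and 10.04 and then 11.93, 11.86 and 12.73, 6.25-fold higher. Aqp3, a channel for water and glycerol, went from 8.03, 7.97 and 7.86 to 10.73, 10.61 and 10.44, 6.25-fold higher (adjusted p = 5.63e-09). The rule that chose the 12 rises kept only genes without overlap between the groups. Of these 3 genes Stra8 varied most within its groups. Dleu7 (5.98, 5.18 and 6.96 to 8.47, 8.75 and 9.49, 2.87 ± 0.36) was the most variable of the 12.

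The largest falls were smaller than the largest rises. Pdgfc, a platelet-derived growth factor, read 10.02, 10.11 and 9.25 without RA and 7.31, 7.31 and 7.30 at 6 h, 5.62-fold lower (adjusted p = 3.29e-06), and untreated replicate C was the lowest of its group. Fut9, the fucosyltransferase that makes the stage-specific antigen SSEA-1 (Lewis x) of mouse ES cells, fell from 9.05, 9.21 and 9.28 to 6.95, 7.13 and 6.85, 4.60-fold, in all 3 of its probe sets. Ly6g6e, a GPI-anchored surface protein, fell from 8.14, 8.72 and 8.92 to 6.76, 6.57 and 6.52, 3.94-fold. In these 3 genes no treated array came within 1 log2 unit of an untreated one. The guanine nucleotide exchange factor Mcf2 (7.59, 7.55 and 7.45 to 5.55, 5.54 and 5.46) and the sialyltransferase St6galnac3 (6.84, 7.16 and 6.86 to 5.02, 5.17 and 5.25) ended under 6.07. So did Lrrc31 (-2.20 ± 0.24), Lrriq4 (-1.77 ± 0.17) and Mipol1 (-1.97 ± 0.13) on at least 2 of their 3 treated arrays. Zmat4 (-1.81 ± 0.28) spread most, with untreated replicate C at 7.05. For 3 genes the value belongs to some probe sets only: Fry (-2.25 ± 0.066) was lower in 1 of 4, Lcorl (-1.62 ± 0.19) in 2 of 6, and Mllt3 (-1.77 ± 0.080) gave -0.22, not called, without the suffixed probe sets.

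**Figure D3:**
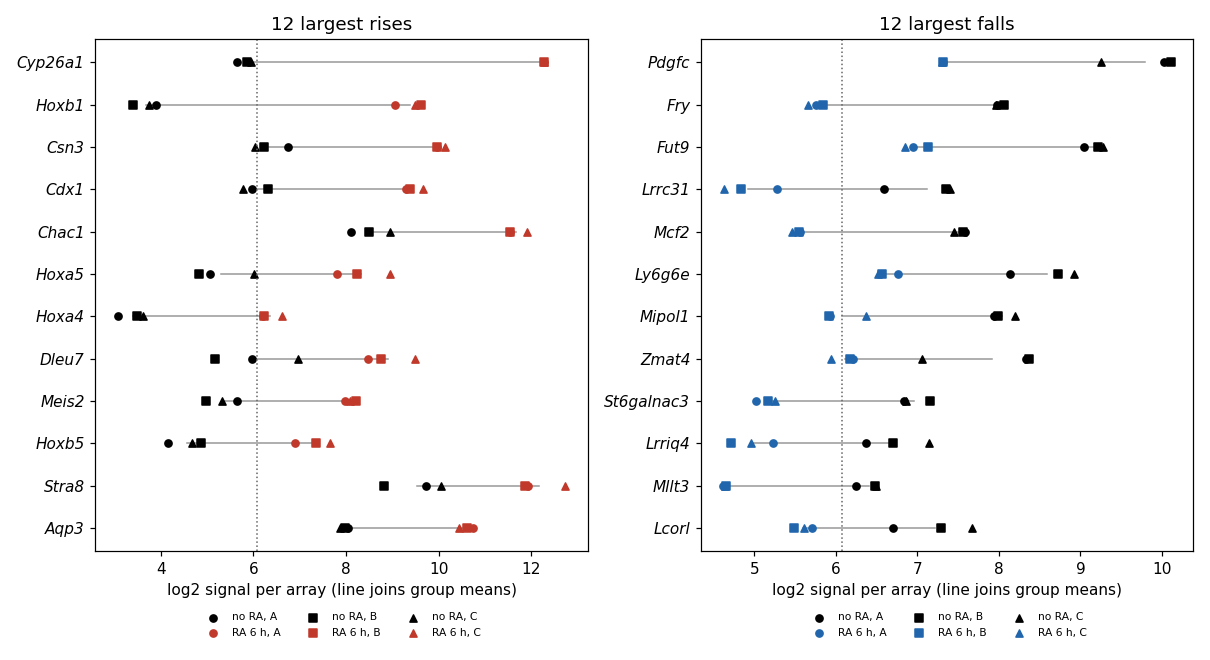
Log2 signals of single arrays for the 12 largest rises (left, 6 h in red) and 12 largest falls (right, 6 h in blue), with untreated arrays in black, circles, squares and triangles for replicates A, B and C, grey lines between group means and a dotted line at 6.07. No gene overlaps between groups by the rule that chose it, and many rises start and several falls end under the dotted line.

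Regulators of the neural plate changed in both directions. Pax6, a factor of the neural tube and eye, read 7.27, 6.72 and 6.23 without RA and 8.65, 8.49 and 8.58 at 6 h, 3.57-fold higher. Gbx2, which sets the midbrain to hindbrain border from the hindbrain side, went from 8.99, 8.01 and 7.97 to 10.15, 9.86 and 10.06, 3.24-fold. Irx3 rose by 1.19, Irx5 by 0.50 and En2 by 0.66. Other regulators fell. Otx2, a forebrain and midbrain factor that opposes Gbx2 at that border and also marks primed epiblast, went from 9.86, 10.14 and 9.52 to 8.90, 8.58 and 8.33, 2.35-fold lower, and the forebrain factor Hesx1 from 8.51, 8.63 and 8.82 to 7.59, 7.37 and 7.29, 2.35-fold lower. Sox11 fell by 0.72 in all 6 of its probe sets. Over the list 5 of 30 measured genes were higher and 5 lower (median 0.03), near the shares over all genes; 14 were under 6.07 on all 12 arrays, and 8 were higher without untreated replicate C.

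Genes of neurogenesis showed no common direction. Map2, a dendrite protein, fell by 1.23 in 1 of its 4 probe sets, the oligodendrocyte and motor neuron factor Olig2 by 1.11 (8.18, 8.17 and 8.65 to 7.33, 7.16 and 7.17), the growth cone protein Gap43 by 0.57 and the RNA-binding protein Elavl4 by 0.55. Tal2, a bHLH factor, was higher (5.19, 5.20 and 5.57 to 6.74, 6.83 and 6.12, 1.24 ± 0.20), as were the LIM homeobox gene Isl1 (0.82 ± 0.11), Gadd45g and Ebf1 (0.60 ± 0.088). Of 25 neurogenesis genes 5 were higher and 6 lower (median 0.01). The proneural genes Neurog1 (0.18 ± 0.072), Neurog2 (0.06 ± 0.11) and Neurod1 (0.01 ± 0.15) were not called. Of the 5 neuron markers 2 were lower.

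Genes of the primitive streak and posterior axis were more often higher, 7 of 22 against 1 lower, a list that also counts Cyp26a1. The Wnt ligands Wnt8a (4.53, 5.07 and 5.08 to 6.52, 6.68 and 6.09, 1.53 ± 0.19) and Wnt3a (5.80, 5.76 and 6.03 to 7.30, 7.18 and 6.72, 1.21 ± 0.13) rose, both from under 6.07. The T-box factor Eomes was 1.72-fold higher and the organizer gene Gsc rose by 0.83 below 6.07. Mesp1 (-0.05 ± 0.092), Mixl1 (0.28 ± 0.11) and Tbx6 (-0.09 ± 0.15) were not called, and none of 4 mesoderm markers was. Fgf8, a streak and border signal, fell by 0.79. T was not analysed here.

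Of the core ES cell factors Sox2 alone was called, while several naive factors fell. Pou5f1 read 13.22, 13.16 and 13.26 without RA and 13.31, 13.33 and 13.27 at 6 h (0.09 ± 0.053), and Nanog 12.69, 12.72 and 12.77 and then 12.89, 12.92 and 12.67 (0.10 ± 0.077); neither was called. Sox2 went from 13.09, 13.19 and 13.18 to 12.74, 12.65 and 12.70, 1.37-fold lower (adjusted p = 0.000499). The fall of Sox2 was small, with both groups narrow and apart. The naive factor Klf4 fell from 12.42, 12.46 and 12.51 to 11.23, 11.10 and 11.37, 2.35-fold (adjusted p = 1.17e-06), and Tfcp2l1 from 11.88, 11.74 and 11.77 to 10.96, 10.92 and 10.96, 1.81-fold. Esrrb was 1.45-fold lower in all 3 of its probe sets and Zfp42 (Rex1) 1.47-fold lower. Fgf4, the ES cell signal that readies cells for differentiation, fell from 11.86, 11.89 and 11.95 to 10.72, 10.62 and 10.36, 2.51-fold. In Klf4, Tfcp2l1 and Fgf4 every treated array lay well below the untreated range. A minority of the list rose: Dppa2 read 11.36, 11.15 and 10.83 and then 12.94, 12.87 and 12.84, 3.41-fold higher, its partner Dppa4 was 1.38-fold higher, and Prdm14 read 8.32, 8.02 and 9.69 and then 10.33, 9.98 and 9.75, with untreated replicate C close to the treated arrays (1.34 ± 0.34; adjusted p = 0.0502 when only the 6 arrays were fitted). The list counted 5 higher and 12 lower of 32 (median -0.16), with 3 higher without untreated replicate B or 6 h replicate A or C. The lower count ran from 7 without 6 h replicate C to 18 without untreated replicate C. With only the 6 arrays fitted, 2 were higher and 7 lower.

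Markers of primed epiblast, the stage that follows the naive state, did not rise together. Dnmt3a (3.03-fold), Etv4 (2.48-fold) and Pou3f1 (1.43-fold) were higher, whereas Otx2, Dnmt3b (-0.58 ± 0.092) and Car4 (-0.34 ± 0.12) were lower. Fgf5, the usual primed marker, was -0.84 ± 0.27 with overlapping arrays, and its call was lost without untreated replicate A or B or 6 h replicate A or C. Of 18 genes 3 were higher and 5 lower, with 3 lower without untreated replicate A and 2 without untreated B or 6 h replicate A or C.

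The receptor chain of LIF, the cytokine that sustains mouse ES cells, fell. Lifr read 10.09, 10.23 and 9.78 without RA and 8.93, 8.88 and 8.74 at 6 h, 2.27-fold lower (adjusted p = 9.82e-06), and its partner Il6st (gp130) went from 10.19, 10.20 and 9.93 to 9.33, 9.17 and 9.25, 1.81-fold lower. The kinases Jak1 (-0.39 ± 0.061) and Jak2 (-0.26 ± 0.085) and the transcription factor Stat3 (-0.34 ± 0.084) fell by less. Socs3, a feedback target of Stat3, was not called (0.13 ± 0.16). Of the Pim kinases, which Stat3 can induce, Pim1 rose 1.89-fold and Pim3 fell 1.60-fold, and Bcl3 rose by 0.72. Counting Klf4, 7 of 15 members were lower and 3 higher (median -0.26).

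Of the FGF ligands and receptors, most were not called and more fell than rose, Fgf4 by the most. Fgf15 went from 8.60, 8.73 and 8.91 to 7.45, 7.65 and 7.47, 2.33-fold lower, and Fgf13 by 0.99 in 1 of 2 probe sets; Fgfr3 (0.62 ± 0.085) was higher, and Fgfr1 (0.14 ± 0.088) and Fgfr2 (-0.46 ± 0.22) were not called. That made 2 higher and 6 lower of 21 (median -0.13). The genes that the FGF to ERK pathway induces as its own brakes showed no common direction, 3 higher and 3 lower of 20, with 7 lower without untreated replicate C and 5 higher without untreated A. Etv4 rose 2.48-fold from 9.91, 9.50 and 9.54 to 11.02, 10.97 and 10.88, Dusp1, an ERK phosphatase, fell 1.46-fold, and Dusp6 (-0.11 ± 0.21), Spry4 (-0.35 ± 0.35) and Etv5 (-0.08 ± 0.11) were not called.

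Among immediate early genes, which growth factors switch on without new protein synthesis, falls outnumbered rises. Egr1 read 13.35, 13.56 and 13.33 without RA and 12.20, 12.23 and 11.92 at 6 h, 2.46-fold lower (adjusted p = 5.14e-06). Egr2 went from 7.30, 8.01 and 7.66 to 6.40, 6.35 and 6.19, 2.54-fold, and Fos from 12.84, 13.05 and 13.26 to 12.44, 12.20 and 12.32, 1.66-fold. The matrix protein Ccn1 (Cyr61) went from 11.23, 11.59 and 10.28 to 9.93, 9.62 and 9.42, 2.59-fold, with untreated replicate C at the low end of its group. Jun, Fosb, Klf6, Maff and Ier5 were lower too, so that 9 of 21 members were lower (median -0.40). The lower count ran from 7 without 6 h replicate C to 13 without untreated replicate C. Atf3 was the 1 member called higher (0.79 ± 0.12); it also belongs to the amino acid stress genes below. The MAP kinase and serum response pathway reaches these genes through CArG boxes, and the promoter of Egr2, at chr10:67537484-67537565 on the plus strand, is shown with such a box (capitals, starting 72 bases before the gene start) because Egr2 was among the largest falls of the list.
Egr2: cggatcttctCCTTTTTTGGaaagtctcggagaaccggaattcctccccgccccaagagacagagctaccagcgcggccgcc
CArG boxes, searched by that name's pattern on both strands, lay in the windows of 229 of 14453 genes (1.58%) and of 2 of 16 immediate early genes (Egr2 and Srf, -0.29 ± 0.19, not called).

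Of the Myc family, Mycn, the main member expressed in neural precursors, read 12.54, 12.72 and 12.11 without RA and 11.11, 11.04 and 10.69 at 6 h, 2.85-fold lower, and Mycl fell 1.74-fold. Myc read 9.67, 9.37 and 7.37 and then 9.03, 9.08 and 8.76: untreated replicate C lay far below A and B, and the treated arrays fell between. The difference was 0.15 ± 0.44, not called, and -0.56 (adjusted p = 0.0107) without untreated replicate C. Mnt, a repressor of the family, fell by 1.04, also with untreated C apart (10.93, 11.01 and 9.87). Counts were 1 higher and 4 lower of 12.

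Genes of the TGF-beta family moved in both directions. Bmp4, a ligand that patterns mesoderm and ectoderm, read from 8.90 to 9.45 without RA and from 10.29 to 10.54 at 6 h, 2.46-fold higher (adjusted p = 2.38e-05). Its target Msx2 rose by 0.84, but Id2 (9.86, 10.03 and 8.97 to 8.17, 8.06 and 8.29) fell 2.72-fold and Id4 2.22-fold, and Id1 (10.40, 10.49 and 8.99 to 10.77, 10.51 and 9.96, 0.46 ± 0.33) and Id3 (0.06 ± 0.38) were not called. The Id genes are textbook targets of BMP signals. Id1 and Id2 were lowest in untreated replicate C. The Nodal antagonist Lefty1 read 12.08, 11.99 and 12.94 and then 13.14, 13.33 and 13.18, 1.84-fold higher, with untreated C between the groups; Nodal (0.14 ± 0.11) and Lefty2 (0.10 ± 0.13) were not called. The count was 6 higher and 5 lower of 28, and 9 lower without untreated C.

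Beside the ligands Wnt8a and Wnt3a, the Wnt receptor Fzd1 (0.63 ± 0.095) rose, while Fzd5 went from 11.35, 11.23 and 10.88 to 10.16, 10.10 and 10.12, 2.04-fold lower, and Fzd2 fell 1.61-fold. Sfrp1, a secreted antagonist, fell from 10.75, 10.66 and 11.02 to 9.63, 9.52 and 9.61, 2.33-fold, in all 5 of its probe sets. Axin2 (-0.19 ± 0.093), Lef1 (-0.13 ± 0.13) and Sp5 (0.08 ± 0.14), genes that Wnt signals through beta-catenin induce, were not called. The list, which also holds Cdx1, counted 7 higher and 5 lower of 39 (median 0.06).

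Notch genes fell more often than they rose, 9 of 22 against 2 (median -0.22). The receptors Notch1 (9.85, 9.89 and 9.58 to 8.84, 8.66 and 8.61, 2.10-fold) and Notch3 (1.84-fold), the ligand Dll1 (-0.60 ± 0.13) and the effector Hes1 (1.65-fold) were lower. Notch4 went the other way, from 7.48, 7.45 and 8.12 to 9.36, 9.14 and 8.74, 2.63-fold higher, and the fringe enzyme Rfng rose by 0.40. For Eph receptors and ephrins, which sort cells at boundaries, 3 of 19 were higher and 4 lower, with 5 higher without untreated C. Epha7 rose by 0.98 and Efnb1 by 0.52, and Epha4 fell by 0.73 and Efna5 by 0.47.

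Lineages outside the embryo proper gave few calls. The endoderm factor Gata6 rose 1.76-fold (6.48, 6.51 and 6.11 to 7.20, 7.03 and 7.30), while Gata4 (0.06 ± 0.072), Sox17 (0.01 ± 0.12) and Foxa2 (0.01 ± 0.10) were not called and the laminin gene Lamc1 fell 1.38-fold; 2 of 19 primitive endoderm genes were higher and 2 lower, and leaving out any array but untreated B left 1 higher. In the trophoblast list, 2 of 17 were higher, Gata2 (1.91-fold) and Eomes, and the keratin Krt19 was 1.77-fold lower, with Krt8 (-0.11 ± 0.15) and Elf5 (0.20 ± 0.14) not called.

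Germ line genes included Stra8 and 6 more higher genes, against 4 lower, of 19 (median 0.12). Dazl, an RNA-binding protein of germ cells, rose 1.48-fold and Kit by 0.32. Prdm1 (Blimp1), which specifies germ cells, fell from 8.68, 8.76 and 9.08 to 8.18, 7.94 and 7.68, 1.87-fold, and the meiotic cohesin Rec8 1.69-fold. The meiotic genes Sycp3 (0.12 ± 0.15) and Ddx4 (0.19 ± 0.075) were not called. The number higher was 3 without untreated replicate B or 6 h replicate A.

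The amino acid stress genes governed by Atf4 gave the most one-sided list, 23 of 32 higher and none lower (median 0.43 against -0.01 over all genes). Chac1, which breaks down glutathione, read 8.11, 8.50 and 8.95 without RA and 11.54, 11.53 and 11.91 at 6 h, 8.82-fold higher (adjusted p = 3.12e-07). Trib3, a pseudokinase that feeds back on Atf4, went from 8.78, 8.89 and 8.87 to 10.37, 10.33 and 10.62, 3.01-fold higher, and the secreted Stc2 from 8.14, 8.57 and 8.87 to 9.75, 9.87 and 10.16, 2.64-fold. Untreated replicate C was the highest of its group for Chac1 and Stc2, and every treated array lay above it. Vldlr was 2.39-fold and the amino acid transporter Slc7a1 1.92-fold higher; Atf4 itself was 1.46-fold higher. The mitochondrial folate enzymes Mthfd2 (0.95 ± 0.074) and Shmt2 (0.60 ± 0.080) rose. Genes of serine and asparagine synthesis, often counted in the same programme, were not called: Asns was at 0.14 ± 0.051, Psat1 at 0.14 ± 0.060 and Phgdh at 0.06 ± 0.066, and Ddit3 (Chop) at 0.25 ± 0.089. Leaving out 1 array gave 19 to 25 higher.

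Atf4 and its partners bind the element TGATGNAA. The promoter windows of Chac1 (chr2:119351039-119351241, plus strand) and Atf3 (chr1:191183334-191183453, minus strand) are shown with the element, in capitals and read on the opposite strand, because both genes rose and the element has the same letters in both.
Chac1: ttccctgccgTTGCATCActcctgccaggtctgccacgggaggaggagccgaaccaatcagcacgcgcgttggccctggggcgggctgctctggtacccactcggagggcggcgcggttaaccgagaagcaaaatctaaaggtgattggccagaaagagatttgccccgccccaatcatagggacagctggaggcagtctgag
Atf3: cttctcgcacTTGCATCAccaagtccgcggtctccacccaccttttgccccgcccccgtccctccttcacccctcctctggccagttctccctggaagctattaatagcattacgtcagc
It starts 193 bases before the gene start in Chac1 and 110 bases before it in Atf3. Searched on both strands, the element lay in the windows of 468 of 14453 genes (3.24%) and of 8 of 26 genes of the list (30.8%). Those 8 were Chac1, Trib3, Atf3, Vldlr, Nupr1, Slc7a11, Asns and Gars; the last 2 were not called. The list was made of genes held to be governed by Atf4, so its share does not test that link. The element was also in 2 of 13 genes of RA metabolism (15.4%), Crabp1 and Rbp4, both lower. It was in 1 of 12 RA receptors and coregulators (8.33%), Nrip1, which was higher. In cholesterol synthesis 1 of 16 held it (6.25%), Idi1, which was lower.

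Stress genes of other kinds moved less. Of the genes of protein folding in the endoplasmic reticulum, Herpud1 (8.97, 9.44 and 9.31 to 10.63, 10.57 and 10.71, 2.64-fold), Xbp1 (10.80, 10.78 and 11.26 to 11.93, 11.94 and 12.11, 2.07-fold) and Syvn1 (1.35-fold), parts of degradation and its control, were higher. The chaperones Hspa5 (BiP, 0.04 ± 0.051), Hsp90b1 (-0.19 ± 0.080) and Calr (0.04 ± 0.064) were not called, and Sdf2l1 fell 1.56-fold. That list counted 3 higher and 6 lower of 24, and 2 lower without 6 h replicate A. Heat shock genes counted 6 higher and 1 lower of 19 (median 0.13), among them Hspa1b (1.49-fold), Hsph1 (1.45-fold) and Hspb1 (1.31-fold). Targets of p53 showed no common direction, 4 higher and 4 lower of 23, with 7 higher without untreated C: Perp rose 1.59-fold, and Cdkn1a (p21) fell 1.48-fold, Bbc3 (Puma) 1.44-fold and Btg2 1.45-fold. Mdm2 was not called (-0.11 ± 0.16).

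Among genes of hypoxia and glycolysis 12 of 29 were lower and 6 higher (median -0.17; 6 lower without the suffixed probe sets). The growth factor Vegfa read 7.29, 7.50 and 8.22 without RA and 9.13, 9.15 and 9.25 at 6 h, 2.83-fold higher, and Ankrd37 rose 2.49-fold. Ndrg1 went from 8.68, 9.11 and 8.76 to 7.38, 7.34 and 7.17, 2.94-fold lower in all 5 probe sets, and the mitophagy receptor Bnip3 from between 12.70 and 13.01 to between 11.79 and 12.07, 1.90-fold lower. These 4 are all known targets of the hypoxia factor Hif1a and moved in opposite directions. Of glycolytic enzymes Hk1 (1.84-fold), Pfkp (1.65-fold) and Ldha (-0.25 ± 0.056) fell, and Pgk1 (-0.12 ± 0.052) and Gapdh were not called.

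Cholesterol synthesis was the most one-sided list among the falls, 14 of 20 lower and 1 higher (median -0.36; 12 to 15 lower when 1 array was left out). The sterol demethylase Cyp51 went from 10.13, 10.08 and 9.23 to 8.70, 8.65 and 8.51, 2.29-fold lower, with untreated replicate C the lowest of its group. Insig1, which holds the sterol sensor back, went from 10.55, 10.50 and 10.29 to 9.33, 9.45 and 9.18, 2.19-fold lower (adjusted p = 2.65e-06). Msmo1 (11.49, 11.43 and 11.40 to 10.62, 10.59 and 10.62) fell 1.78-fold, Tm7sf2 1.77-fold and the rate-controlling epoxidase Sqle 1.71-fold. The pathway's transcription factor Srebf2 was lower as well (-0.66 ± 0.073), Hmgcs1 by less (-0.36 ± 0.061), and Ebp alone was higher (0.40 ± 0.067). The sterol element TCACNCCAC was in the windows of 211 of 14453 genes (1.46%) and of 1 of 16 in the list, Hmgcs1. Fatty acid genes did not follow: 3 of 16 were higher and 4 lower (5 higher without untreated C), with Mid1ip1 (1.74-fold) and Elovl6 (1.32-fold) up, Acss2 (1.39-fold) down and Scd1 (0.21 ± 0.15) not called.

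Cell cycle genes were more often lower, by small amounts. For DNA replication 13 of 39 were lower and 4 higher (median -0.09); Orc1 fell 1.31-fold, Pole 1.30-fold and Gins2 1.29-fold, and Orc2 rose 1.38-fold, with 2 higher without untreated replicate B or 6 h replicate A. For mitosis 13 of 37 were lower and 2 higher (median -0.12), with 4 higher without untreated replicate C and 1 without untreated A or 6 h replicate B or C. Cdc25b, a phosphatase that starts mitosis, fell 1.42-fold, Nusap1 1.41-fold and Bub1b 1.36-fold, the checkpoint kinase Ttk rose 1.29-fold, and Ccnb2 (-0.12 ± 0.074), Plk1 (-0.17 ± 0.062) and Cdc20 (0.06 ± 0.061) were not called. The lower count was 7 with the mean of each gene's probe sets and 6 without suffixed probe sets. Of G1 genes 5 of 25 were higher and 7 lower, with 3 higher without 6 h replicate A. Ccnd1 fell 1.29-fold, E2f1 1.39-fold and Cdkn1a 1.48-fold, and Cdkn2d rose 1.43-fold. Proliferation markers Top2a (0.05 ± 0.072) and Pcna (0.02 ± 0.054) were not called.

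The DNA methyltransferases changed in opposite directions. Dnmt3a read 9.98, 9.80 and 9.84 without RA and 11.38, 11.51 and 11.52 at 6 h, 3.03-fold higher (adjusted p = 4.21e-07; 3 of its 5 probe sets were higher and 1 lower). Dnmt3b went from 11.92, 11.94 and 11.80 to 11.19, 11.47 and 11.26 (-0.58 ± 0.092), and Dnmt1 was not called (-0.08 ± 0.066). The demethylating enzymes split too, Tet2 up 1.70-fold and Tet1 down 1.29-fold, with 5 of 18 genes of the list higher and 5 lower. Of Polycomb genes, which keep developmental genes silent, 5 of 29 were higher and 4 lower, with 9 higher without untreated C: Bmi1 rose 1.71-fold, Ezh2 fell 1.27-fold, Phc1 1.32-fold and Pcgf5 1.54-fold, and Suz12 (-0.20 ± 0.089) and Eed (-0.11 ± 0.073) were not called. Histone lysine methylation counted 5 higher and 6 lower of 37, with 8 higher without untreated A or C. Kdm6b, which removes the Polycomb mark, rose 1.75-fold, Smyd2 1.91-fold and Kdm4a 1.52-fold, and Nsd2 fell 1.53-fold and Wdr5 1.34-fold.

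Some genes of transcription elongation and splicing changed at least 2-fold. The share called was 25% in the super elongation complex and 47.1% in splicing, against 29.7% over all genes. In the super elongation complex Aff3 went from 8.80, 8.81 and 8.77 to 7.54, 7.74 and 7.82, 2.14-fold lower in 1 of 2 probe sets, and Aff1 fell 1.58-fold; Hexim1, an inhibitor of P-TEFb, rose 1.52-fold, and Cdk9 (0.08 ± 0.071) and Ell (0.04 ± 0.057) were not called (1 higher and 4 lower of 20). Of splicing genes 11 of 34 were higher and 5 lower, and 7 were higher without 6 h replicate A or B. The kinase Clk2 read 8.73, 8.63 and 9.95 and then 10.48, 10.51 and 10.45, 2.60-fold higher, with untreated replicate C above A and B. Its relatives Clk1 (1.43-fold), Clk3 (0.49 ± 0.15) and Clk4 (0.28 ± 0.068) rose as well, whereas Srpk2, from the other family of SR protein kinases, fell from 10.08, 10.57 and 10.17 to 8.86, 8.75 and 8.67, 2.85-fold, and Srpk1 (0.03 ± 0.067) was not called. Esrp2 was 1.55-fold higher and its relative Esrp1 1.34-fold lower.

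Ribosome biogenesis genes were higher in 23 of 50 cases and lower in 2 (median 0.15). The helicase Ddx56 read 9.25, 9.12 and 9.30 without RA and 10.27, 10.15 and 10.18 at 6 h, 1.97-fold higher (adjusted p = 1.36e-06), and Nop56 rose 1.58-fold, Rrp12 1.56-fold and the polymerase I subunit Polr1a by 0.45. The abundant nucleolar proteins Npm1 (0.04 ± 0.048), Ncl (0.01 ± 0.050) and Fbl (-0.04 ± 0.052) were not called. Of proteasome subunits 4 of 31 were higher and none lower, Psmc4 the most (1.32-fold), and of respiratory chain genes 3 of 37 were higher (1 without 6 h replicate C) and 3 lower.

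Enzymes that build cell surface glycans were lower in 12 of 36 cases and higher in 4 (median -0.14; 2 higher without 6 h replicate A). Beside Fut9 and St6galnac3, the ganglioside synthase St8sia1 (-1.57 ± 0.15) and Gcnt2 (10.25, 10.43 and 10.13 to 9.09, 9.04 and 8.87, 2.42-fold, in 3 of 8 probe sets) fell, and B3galt6 rose 1.87-fold. Genes of epithelial junctions were lower in 11 of 29 cases and higher in 3 (median -0.11). Claudins Cldn7 (1.55-fold) and Cldn6 (-0.50 ± 0.13), Cdh3 (P-cadherin, 1.46-fold), the connexin Gjb5 (1.93-fold) and the adhesion molecule Epcam (-0.51 ± 0.060) fell. Cdh1 (E-cadherin, -0.04 ± 0.068) and Cdh2 (N-cadherin, -0.11 ± 0.14) were not called, and Esam rose 2.07-fold.

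**Figure D4:**
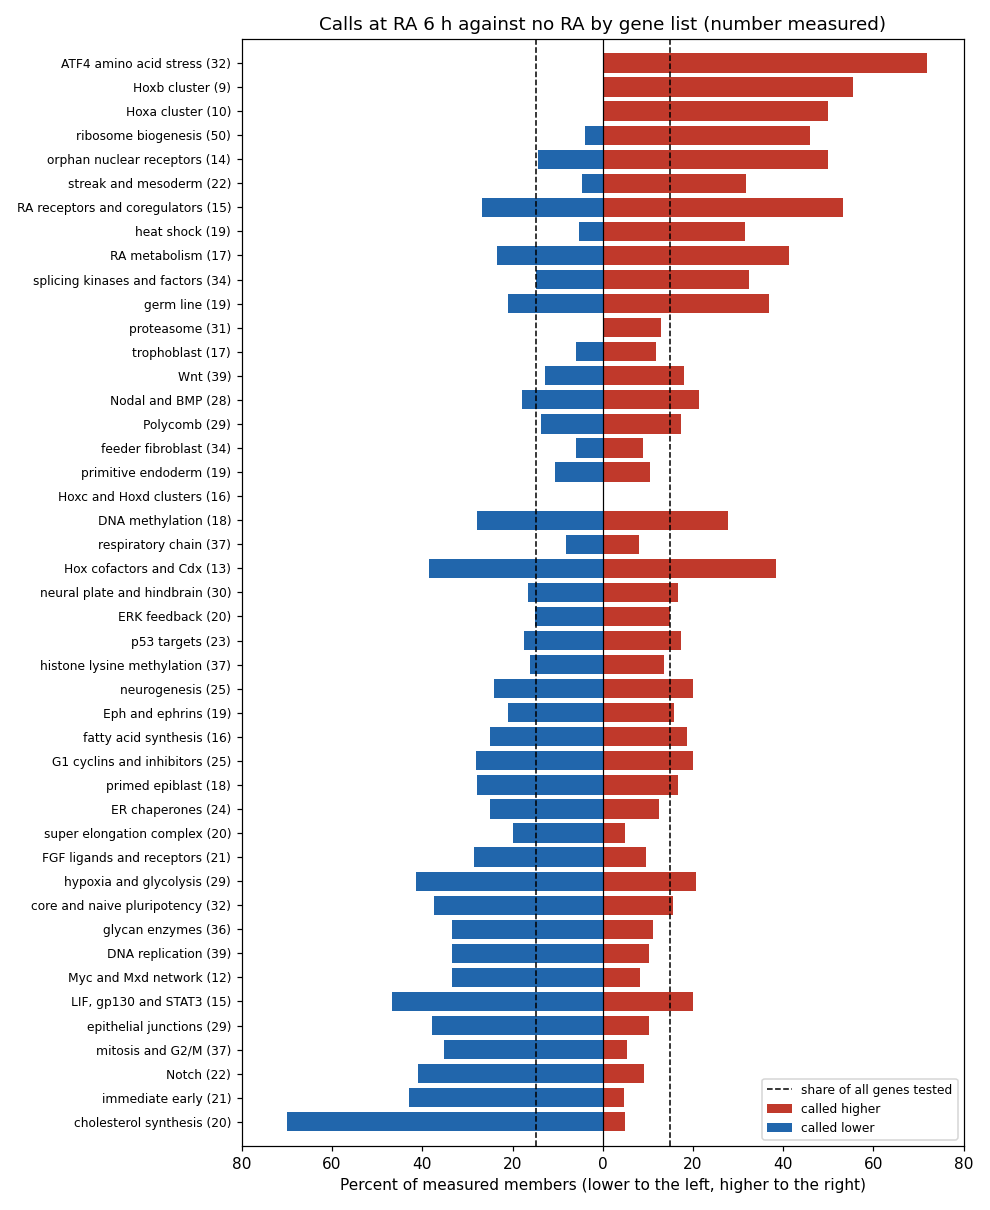
Bars give, for each of 45 gene lists (number of measured genes in brackets), the percent of members called higher (red, to the right) and lower (blue, to the left) at RA 6 h against no RA, and dashed lines give the shares over all genes, 15% higher and 14.7% lower. Amino acid stress genes reach farthest to the right (23 of 32) and cholesterol synthesis genes farthest to the left (14 of 20).

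The arrays of 4 h show how much of the 6 h pattern arose in the last interval. Between 4 h and 6 h only 107 genes (0.588%) differed, 57 higher (0.313%) and 50 lower (0.275%), and the number was 5 to 20 when any 1 of the 6 arrays was left out. This comparison and that with 2 h use the same 6 h arrays as the one above. No Hox gene and no gene of RA metabolism was among them: Cyp26a1 was -0.39 ± 0.084, Hoxb1 0.24 ± 0.17 and Hoxa5 0.28 ± 0.33 from 4 h to 6 h. Of the 12 largest differences 5 stayed called without each single array in turn, 4 of them falls, but averaging the probe sets of each gene left 3 of the 5 not called: Fry (-0.28, adjusted p = 0.192), St6galnac3 (-0.40, adjusted p = 0.0646) and Phf21a (0.50, adjusted p = 0.092). Jam2, a junction adhesion molecule, read 10.68, 10.52 and 10.58 without RA, 10.57, 10.46 and 10.35 at 4 h and 9.63, 9.51 and 9.61 at 6 h, so that its fall of 0.88 (adjusted p = 0.000185) came after 4 h. Cobl, an actin nucleator, read 11.23, 11.12 and 11.20, 10.75, 10.85 and 10.76 and 10.03, 10.03 and 10.08 (-0.74 ± 0.055 between 4 h and 6 h). Fry (-1.18 ± 0.066) and St6galnac3 (-0.83 ± 0.089) had begun to fall by 4 h and fell further. Phf21a, a reader of unmethylated histone H3, was 8.39, 8.54 and 8.53 at 4 h and 9.16, 9.21 and 9.24 at 6 h (0.72 ± 0.072, adjusted p = 0.00195), close to the untreated arrays (9.22, 9.21 and 9.42). The other 7 lost their call in 3 to 6 of the 6 fits that left out 1 array: Cidea, a lipid droplet protein, at -1.09 ± 0.14, Pck2 at 0.78 ± 0.12, Jun at 0.75 ± 0.14, Vsir at 0.74 ± 0.11, Plekha2 at 0.74 ± 0.12, Sh3bp5 at 0.70 ± 0.10 and the thiamine transporter Slc19a2 at -0.75 ± 0.13.

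Against 2 h, 5846 genes (32.1%) differed at 6 h, 3107 higher (17.1%) and 2739 lower (15.1%). Hoxb1 read 6.64, 6.66 and 6.57 at 2 h, 8.90, 9.45 and 9.08 at 4 h and 9.05, 9.63 and 9.48 at 6 h (2.76 ± 0.17 from 2 h, adjusted p = 1.86e-06). Hoxa4 (2.02 ± 0.22) and Hoxa5 (1.85 ± 0.33) rose in the same interval. The zinc finger factor Zfp423, which can bind RA receptors, read 9.47, 9.18 and 9.54 without RA, 9.36, 9.27 and 9.14 at 2 h and 11.33, 11.42 and 11.47 at 6 h, a rise of 2.15 ± 0.12 that lay wholly after 2 h. Clk2 (1.82 ± 0.25) and the immune checkpoint gene Vsir (1.78 ± 0.11) also rose after 2 h. Cyp26a1 was already at 12.07, 11.87 and 11.83 at 2 h and rose by a further 0.35 (adjusted p = 0.00784), while Nrip1 (0.17 ± 0.13) and Rara (-0.01 ± 0.088) did not pass the test between 2 h and 6 h. Of the falls, Fry (-2.29 ± 0.066), Ly6g6e (-2.16 ± 0.18), Pdgfc (-2.16 ± 0.19), Lrrc31 (-1.84 ± 0.24) and Fut9 (-1.84 ± 0.10) were lower at 6 h than at 2 h. Cidea and Tal2, the latter picked after its values were seen, were highest at 2 h. Cidea read 6.43, 6.47 and 7.01 without RA, 9.38, 9.50 and 9.52 at 2 h and 7.69, 7.47 and 7.52 at 6 h (-1.91 ± 0.14), and Tal2 read 5.19, 5.20 and 5.57, 8.28, 8.40 and 8.47 and 6.74, 6.83 and 6.12 (-1.82 ± 0.20). Both were still above the untreated arrays at 6 h.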

How the data were processed

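Total RNA of KH2 ES cells was measured on Affymetrix mouse arrays. The table of the series held the authors' deposited log2 values of 45101 probe sets on 12 arrays, 3 per group; limma 3.4.3 stands in the submitters' processing notes, and the normalization behind the log2 values is not given in the sources used here. Array medians ran from 6.05 to 6.10. Depth has no meaning for arrays, so the number of arrays limits the precision.

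Probe sets were named through the platform annotation: 34958 had 1 gene, 932 several and 9211 none, and the latter 2 kinds were left out. Of the first kind 34754 matched RefSeq by gene ID, with the same symbol in each. The 64 control probe sets were not filtered out, so any that named 1 gene stayed in. Each of 18194 genes was read from its brightest probe set, by the mean of the 12 arrays. limma 3.58.1 (R 4.3.3) fitted the 4 groups on all 12 arrays, with no block, and p-values were adjusted by Benjamini and Hochberg over all genes. Figures and promoter searches used Python 3.11.15, matplotlib 3.10.9, numpy 2.4.6 and pandas 2.3.3. The fit was tested on simulated data.

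The comparison and all gene lists were chosen with earlier results of these data known. Named genes were the 12 largest rises and falls without overlap between groups, the largest changes of each list, controls and the step genes; list members outside this rule were named with their values known. Alternatives changed the normalization, probe set choice, filter on dim genes, variance model, array weights, arrays fitted, replicate block, thresholds and single arrays; those for single genes of the steps from 4 h and 2 h were added after seeing the data.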

Additional observations from a re-analysis of the deposited data

Results flagged for a closer look

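In 4 of the named genes the signal lay on one side of untreated cells at 2 h of RA and on the other side at 6 h, each past the threshold against untreated cells, and the difference between the times was itself tested in limma. The comparisons with untreated cells share the untreated arrays. At 2 h against untreated cells the limma adjusted p was 0.0422 for Bcl3 and 0.0489 for En2, both close to the threshold of 0.05. For Clk1 it was 0.00798 and for Hs3st3b1 0.000146. These 2 h differences from untreated cells were not refitted under other settings. Bcl3, an IκB family gene that Stat3 can induce, read 9.42, 9.21 and 9.42 without RA, 8.95, 8.92 and 8.94 at 2 h and 10.08, 10.24 and 9.88 at 6 h, a difference of 1.13 between the times (adjusted p = 1.21e-05). The splicing kinase Clk1 read 11.35, 11.27 and 11.54 without RA, 11.03, 10.95 and 10.89 at 2 h and 11.86, 11.95 and 11.90 at 6 h, a difference of 0.95 (adjusted p = 6.54e-06). The midbrain and hindbrain factor En2 differed by 1.06 (adjusted p = 1.57e-05), at -0.40 against untreated cells at 2 h and 0.66 at 6 h. In these 3 genes the arrays of the 2 times did not overlap. The heparan sulfate enzyme Hs3st3b1 differed by 1.53 (adjusted p = 4.01e-06), from -1.12 at 2 h to 0.41 at 6 h, but its 6 h value was 0.05 with the mean of its probe sets (adjusted p = 0.599). Single arrays were not tested as outliers within the groups of 3.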

How the results depend on the processing

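Against untreated cells the total was 4328 to 6152 when 1 array was left out, and other normalizations, probe set choices, filters and variance models kept it within 1.5 times of 5409. With only the 6 arrays fitted 1799 genes were higher. At an adjusted p under 0.01 there were 3479 calls (1729 higher, 1750 lower), and 325 reached 2-fold (166 higher, 159 lower). Against 2 h the counts were 3619 (2038 and 1581) at 0.01 and 259 (135 and 124) at 2-fold. Against 4 h they depended most on the processing: 36 (19 and 17) with probe sets averaged per gene, 236 (132 and 104) without dim genes, 207 (115 and 92) with a trended variance, 696 (408 and 288) with array weights, 251 (164 and 87) with only the 6 arrays, 7 (2 and 5) at 0.01 and 2 (0 and 2) at 2-fold. Leaving out 1 array there gave 5 to 20 calls, 1 to 11 higher and 4 to 11 lower, the fewest without 4 h replicate A; fewer arrays entered those fits.

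Replicate letters did not pair the arrays: the correlations of deviations were 0.034 for A, 0.062 for B and 0.185 for C. With the letter as a block 5386, 83 and 5838 genes were called against untreated cells, 4 h and 2 h.

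Over 314 named genes 4414 of 4658 alternative values stayed on their side of the threshold, 234 lost the call and 8 gained it. Another 2 reversed in sign with a call in at least 1 of the fits compared. Changes of sign in genes called in neither fit were counted among the 4414. Cbx7, a Polycomb gene, was 0.0236 with the mean of its probe sets (adjusted p = 0.832), and Myc ranged from -0.56 without untreated C (adjusted p = 0.0107) to 0.59 without untreated A; the cause was not tested. Counts of 1 or 2 calls in a list moved by 1 in several lists when single arrays were left out. The signal over background is not known, which limits all low values.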
